A study of Anopheles stephensi with 4 samples.

Results

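The genes described here are the most isoform-rich genes of moderate exon number in a transcript assembly of the mosquito Anopheles stephensi. A gene was included when 8 or more of its transcripts either matched the annotated transcript or shared a splice junction with it, and when the annotated transcript had fewer than 15 exons. In all, 119 of 12339 genes met both conditions, and they are called members below. A further 14 genes had 8 or more isoforms but 15 or more exons. The rule used no expression level. At its isoform edge, 34 members had exactly 8 isoforms and 52 genes with 7 isoforms stayed outside. The median levels of these 34 and 52 genes were 19.3 and 14.7 FPKM (fragments per kilobase, corrected for library size by the authors) in fat body, 17.8 and 21.7 in the ovary, 25.5 and 15.9 in midgut, and 26.7 and 29.1 in Malpighian tubules. At the exon edge, 5 members had 14 exons and 3 genes with 15 exons stayed outside.

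RNA was measured by paired-end sequencing in fat body, ovary, midgut and Malpighian tubules dissected from sugar-fed adult females of a laboratory colony, with no further treatment and no strain given in the labels. The conditions recorded for all libraries were 27 °C, 70% humidity and 12 h of light a day. Each tissue had 1 library, run on 2 lanes as technical replicates, so every difference between tissues compares these libraries, has no replicate check and carries no p-value. The libraries held an estimated 27490311 (midgut) to 36316835 (Malpighian tubules) fragments. The tissue labels could not be checked against marker genes, because the files give gene identifiers without names and 0 of the 12339 identifiers were found in the reference table of 15394 genes; for the same reason no function is given for any member.

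A gene makes several isoforms when transcription begins at alternative promoters, when exons are joined in alternative ways, or when the transcript is cut and polyadenylated at alternative ends. Alternative promoters let different tissues transcribe the same coding exons under separate control, and alternative splicing can change the protein itself. The fat body stores nutrients and secretes proteins into the haemolymph, the ovary makes the eggs, the midgut is the site of digestion, and Malpighian tubules form the primary urine.

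The members had a median of 10 isoforms and a maximum of 37, in all 1233 transcripts, 1114 of which were assembled transcripts that share a junction with the annotated one. Most members had several start labels. The start labels of the assembly numbered 2 in 23 members, 3 in 26, 4 in 34, 5 in 21, 6 in 10, 7 in 3 and 8 in 2, with a median of 4. These numbers, like the starts counted for single members below, include the label of the annotated transcript. Of the 1114 assembled isoforms, 1102 did not carry that label. An annotated model that holds the coding length alone does not show where transcription starts, so its label need not be a further start. Ends were less varied: counted as groups of ends within 100 bases of each other, they had a median of 3 per member, a range of 1 to 22, and 19 members with 4 or more. The end groups include the end of the annotated transcript too. The annotated transcript had a median of 7 exons. Genes with 2 to 7 isoforms and fewer than 15 exons (4300 genes) had medians of 2 start labels, 2 end groups and 4 exons. The members lay on 65 scaffolds, and 64 members were on the plus strand.

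The assembled isoforms extended past the annotated transcript at both ends. Of the 1114 assembled isoforms, 1102 (98.9%) had another start label, 1086 (97.5%) another first intron and 1010 (90.7%) a start upstream of the annotated one. In the genes with 2 to 7 isoforms these shares were 93.8%, 82.7% and 89.7%. An end downstream of the annotated one was found for 955 isoforms (85.7%), against 90.3% in those genes. The starts lay a median of 7283.5 bases upstream, with quartiles of 1593.75 and 20454.8 bases, against a median of 1287.5 bases in the genes with 2 to 7 isoforms. The ends lay a median of 1238 bases downstream of the annotated end. Of the annotated transcripts, 110 of 119 (92.4%) had a length that is a multiple of 3, so these annotated models mostly hold the coding length alone, with a median of 2160 bases against 4372 bases for the assembled isoforms.

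Differences from the annotated exons and introns were also common, and introns that reach outside the annotated span are counted among them. An annotated exon was skipped in 330 assembled isoforms (29.6%) of 53 members, and the corresponding share in genes with 2 to 7 isoforms was 7.97%. A donor site was moved in 528 (47.4%) and an acceptor site in 345 (31.0%), against 32.0% and 19.1%. A donor counted as moved when an intron kept an annotated acceptor but had another donor, and the reverse held for acceptors. The other site may lie outside the annotated span, so new first and last exons count here too. Intron retention was found in 124 isoforms (11.1%) of 32 members, and in 13.6% of the isoforms of the genes with 2 to 7 isoforms. The last intron differed in 649 isoforms (58.3%), against 39.4%, and introns past the annotated end are included. Only 172 isoforms (15.4%), from 50 members, kept every annotated intron and spanned the annotated transcript, against 29.7%. Genes with more exons and more isoforms have more opportunities for each of these differences, so the shares describe the 2 sets of genes and were not tested.

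Isoforms with a first intron other than the annotated one carried most of the members' level. The median of their share was 94.6% in fat body, 89.5% in the ovary, 90.6% in midgut and 91.6% in Malpighian tubules. Isoforms with a skipped exon held 50% or more of the level in 35 of 116 members in fat body, 31 of 111 in the ovary, 26 of 108 in midgut and 33 of 118 in Malpighian tubules. Those with a retained intron did so in 5 to 7 members per tissue. The median share of either kind was 0% in each tissue. These shares and counts were not made over other genes, so they are not shown to be particular to the members.

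Nearly all members were expressed in all tissues. At 1 FPKM or more, all 119 members were detected in fat body, 118 in the ovary, 119 in midgut and 119 in Malpighian tubules. Among all genes the shares detected were 64.1%, 61.2%, 57.5% and 61.5%, and 118 members against 52% of all genes were detected in all 4 tissues. Isoforms are assembled from reads, so a gene without reads cannot reach 8 assembled isoforms, and these counts support nothing about the members. Levels are the sums of a gene's isoforms. In bulk tissue, fewer cells of a type and less RNA per cell cannot be told apart.

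Median member levels were 23.9 FPKM in fat body, 27.2 in the ovary, 38.1 in midgut and 40.9 in Malpighian tubules, and those of the genes with 2 to 7 isoforms were 10.7, 12.1, 9.16 and 10.9 FPKM. More reads allow more isoforms to be assembled, so the higher member levels may follow from the choice of members. They support nothing about the members. The highest level stood in Malpighian tubules for 43 members, in midgut for 32, in the ovary for 26 and in fat body for 18. Among the 8749 genes of the whole table that reached 1 FPKM in a tissue, the shares were 14.5% for Malpighian tubules, 27.5% for midgut, 37.03% for ovary and 20.9% for fat body. This order depended on the scaling between tissues. Rescaling the FPKM to the same sum in each tissue (TPM) moved log2 levels by 0.12 in fat body, 1.17 in the ovary, -0.32 in midgut and 0.79 in Malpighian tubules. The numbers then became 59 for Malpighian tubules, 37 for ovary, 13 for fat body and 10 for midgut, and the shares over all these genes 24.5%, 52.7%, 14.5% and 8.32%. For the members, Malpighian tubules came first under both scalings. The ratio of the highest to the lowest tissue, taken on FPKM + 1, had a median of 4.69. It was below 2 in 6 members and at least 10 in 24.

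**Figure D1:**
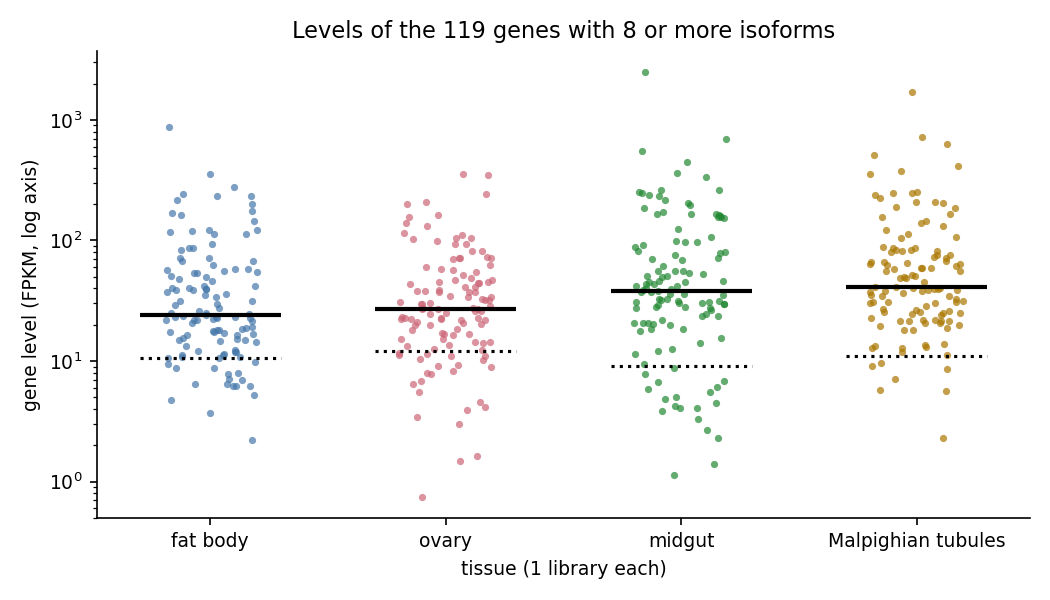
Gene level (FPKM, log axis) of the 119 members in each tissue, with 1 point per gene, a solid line at the members' median and a dotted line at the median of the genes with 2 to 7 isoforms. The members' medians lie between 23.9 FPKM in fat body and 40.9 FPKM in Malpighian tubules, above the dotted lines in all 4 tissues, which may follow from the choice of members.

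Levels of a gene in 2 tissues were counted as different when they stood 4-fold or more apart on the log2(FPKM + 1) scale, which compresses low levels. All 6 pairs of tissues draw on the same 4 libraries. Between fat body and ovary, 23 of 119 members passed, where 20% of all genes tested did. Of these, 13 were higher in fat body (13.8% of all genes) and 10 in the ovary (6.18%). With TPM the number was 40 (32.7% of all genes), 7 higher in fat body and 33 in the ovary (8.78% and 23.9%), so the direction of this comparison rests on the scaling.

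Malpighian tubules had the higher level more often than fat body under both scalings. Between these tissues 24 members passed (13.7% of all genes), 5 higher in fat body (8.12%) and 19 in Malpighian tubules (5.63%). With TPM there were 40 (15.9%), 3 and 37 (6.21% and 9.7%). Between fat body and midgut 24 members passed (18.8%), 9 higher in fat body (10.9%) and 15 in midgut (7.89%), and with TPM again 24 (19.2%), divided evenly into 12 and 12 (13.2% and 6.05%).

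The comparison of ovary with midgut turned with the scaling. Between ovary and midgut 39 members passed (27.9%), 16 higher in the ovary (13.4%) and 23 in midgut (14.5%). With TPM 47 passed (42.6%), 37 of them higher in the ovary (35.6%) and 10 in midgut (7.01%). For ovary and Malpighian tubules 35 passed (20.8%), 9 higher in the ovary (8.32%) and 26 in Malpighian tubules (12.5%). With TPM 30 passed (26%), 12 and 18 (15.3% and 10.7%), so that more members were higher in Malpighian tubules under both scalings. Midgut and Malpighian tubules differed least with the deposited values: 15 members passed (12%), 7 higher in midgut (5.38%) and 8 in Malpighian tubules (6.61%). With TPM 37 passed (18%), 3 and 34 (2.97% and 15.1%).

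Members enriched in 1 tissue, with FPKM + 1 at least 5 times that of the next tissue, were few. They numbered 3 in fat body (3.41% of all genes), 2 in the ovary (1.47%), 4 in midgut (1.97%) and 2 in Malpighian tubules (1.12%). With TPM they numbered 1 (2.73%), 9 (5.9%), 3 (1.35%) and 4 (1.67%). The enriched members of highest level are described below with their isoforms.

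The use of isoforms was spread over several of them in every tissue. It was measured as Shannon entropy in bits, which is 0 when a single isoform holds the whole gene level, for members at 5 FPKM or more. The median was 2.07 bits in fat body (116 members), 2.27 in the ovary (111), 2.05 in midgut (108) and 2.17 in Malpighian tubules (118). These values are what 4.19, 4.83, 4.15 and 4.51 equally used isoforms would give. The genes with 2 to 7 isoforms had medians of 0.893, 0.943, 0.914 and 0.918 bits, and the genes with 8 or more isoforms and 15 or more exons had 1.96, 2.21, 1.99 and 2.34 bits. The number of isoforms caps the entropy, so the higher values of genes with more isoforms follow in part from the choice of members. As a share of the cap, the members' medians were 63.6%, 66.5%, 62.9% and 66.0%, and those of the genes with 2 to 7 isoforms 66.4%, 71.9%, 67.8% and 67.9%.

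**Figure D2:**
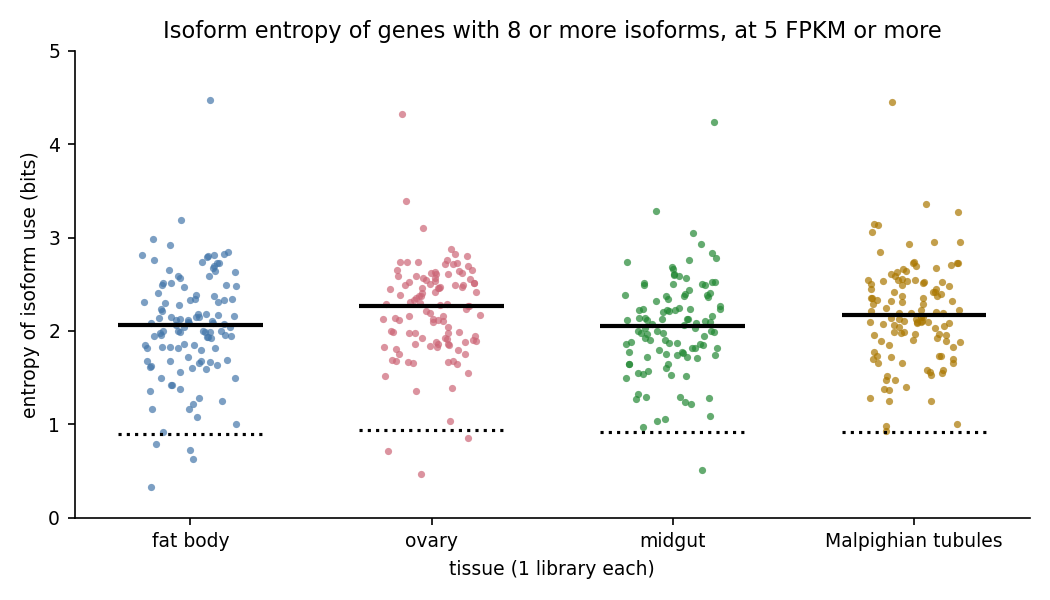
Entropy of isoform use (bits) of the members at 5 FPKM or more in each tissue, with 1 point per gene, a solid line at the members' median and a dotted line at the median of the genes with 2 to 7 isoforms. The members' medians lie between 2.05 bits in midgut and 2.27 bits in the ovary, and the topmost point in each tissue is ASTEI03335, at 4.23 to 4.48 bits.

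The largest isoform held a median of 46.6% of the gene level in fat body, 41.6% in the ovary, 44.6% in midgut and 43.5% in Malpighian tubules. It held 60% or more in 30 of 116, 13 of 111, 24 of 108 and 19 of 118 members, and less than 25% in 11, 5, 3 and 11. Among all genes with 2 or more isoforms it held 60% or more in 69.0%, 63.1%, 67.3% and 66.7%, and less than 25% in 0.342%, 0.209%, 0.104% and 0.409%. A median of 3 isoforms per tissue reached both 1 FPKM and 10% of the gene. The annotated transcript was the largest isoform in 20, 24, 19 and 19 members, which is 17.2%, 21.6%, 17.6% and 16.1%. Among all genes with 2 or more isoforms it was so in 22.2%, 24.0%, 24.3% and 21.4%. In the members it held a median of 2.68% in fat body, 8.37% in the ovary, 6.57% in midgut and 3.09% in Malpighian tubules, and was listed at 0 in 34, 12, 23 and 30 members. For all genes with 2 or more isoforms these medians were 16.2%, 20.6%, 18.9% and 15.6%. The annotated transcript was listed at 0 in 608 of 3221, 421 of 3342, 464 of 2884 and 517 of 3176 such genes. Over all tissues 247 of the 1233 transcripts were the largest of their gene somewhere, 1004 reached 1 FPKM in at least 1 tissue, and 81 stayed under 0.1 FPKM everywhere.

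The spread was also measured after isoforms were pooled into groups. When isoforms were pooled by start label, the median entropy between starts was 1.11 bits in fat body, 1.14 in the ovary, 1.19 in midgut and 1.31 in Malpighian tubules, a median of 62.5%, 53.5%, 60.3% and 62.4% of each gene's entropy. Pooled by the introns that overlap the annotated span and by coverage of the annotated start and end, it was 1.47, 1.58, 1.42 and 1.43 bits. These values are thus not of introns alone. Pooled by end group, it was 0.775, 0.854, 0.853 and 0.760 bits. The groupings overlap, since a new start usually brings a new first intron, so these parts do not add up. The values for start labels and end groups include any split between the annotated transcript and the assembled isoforms.

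The largest isoform often differed between tissues. Of 118 members at 5 FPKM in at least 2 tissues, 84 had another largest isoform in some pair, where 32.7% of all genes with 2 or more isoforms did. The number was 60 of 110 between fat body and ovary (23.8% of all genes), 62 of 102 between ovary and midgut (24.7%) and 67 of 111 between ovary and Malpighian tubules (23.9%). Of the pairs without ovary, fat body and midgut had 47 of 106 (19%), fat body and Malpighian tubules 50 of 116 (15.8%), and midgut and Malpighian tubules 45 of 107 (15.8%). More isoforms at similar levels make such a difference more likely, so the counts describe the members and were not tested against other genes. Of the 84 members, 57 kept a different largest isoform when the authors' bounds on the FPKM of both isoforms also had to be apart in each tissue.

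Among the 102 members at 5 FPKM in all 4 tissues, 26 had the same largest isoform throughout, 42 had 2 largest isoforms, 27 had 3 and 7 had a different one in each tissue. In 17 members the other 3 tissues shared a largest isoform that ovary did not have. The same held for Malpighian tubules in 6 members, for midgut in 5 and for fat body in 3. These counts were not made over other genes. Over all genes with 2 or more isoforms the pairs with ovary also differed most often in their largest isoform. The shares were 23.8%, 24.7% and 23.9% with ovary and 19.0%, 15.8% and 15.8% without, so the ovary pattern is not particular to the members.

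The distance between the isoform shares of 2 tissues, which is the percentage of the gene level carried by other isoforms, had a median of 39.2% between fat body and ovary, 46.8% between ovary and midgut and 39.0% between ovary and Malpighian tubules. For the remaining pairs it was 30.1% (fat body and midgut), 26.4% (fat body and Malpighian tubules) and 24.6% (midgut and Malpighian tubules). The 3 pairs with ovary stood above the other 3. In 75 of the 102 members the mean of the ovary pairs exceeded that of the other pairs, with medians of 42.4% and 29.5%. In genes with 2 to 7 isoforms the pairs with ovary had medians of 10.9%, 10.8% and 9.60%, and the others 8.35%, 6.84% and 6.70%. The pairs with ovary share that 1 library, so its own properties and the tissue cannot be told apart. Over start labels alone, the members' medians were 21.3%, 26.2% and 24.2% with ovary and 18.6%, 14.3% and 12.0% without.

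**Figure D3:**
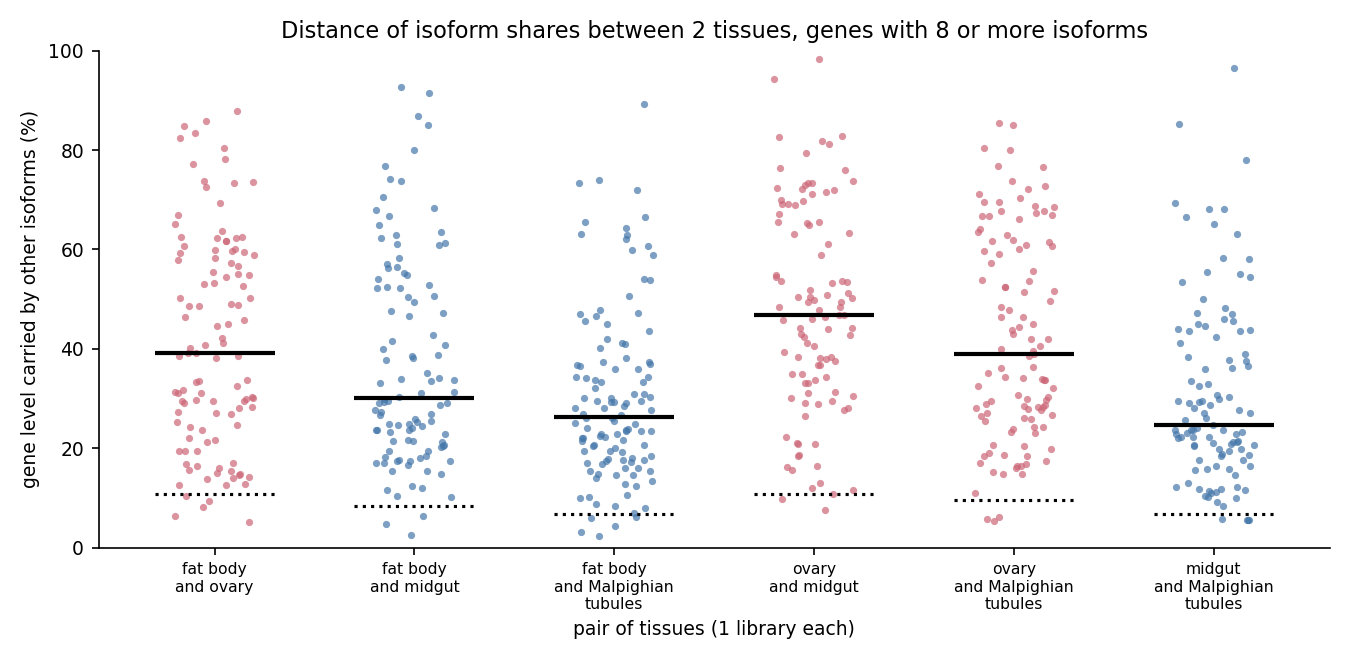
Percentage of the gene level carried by other isoforms for each pair of tissues, with 1 point per member at 5 FPKM or more in both, a solid line at the members' median and a dotted line at the median of the genes with 2 to 7 isoforms. The medians of the pairs with ovary (red) are 39.2%, 46.8% and 39.0%, and those of the other pairs (blue) are 30.1%, 26.4% and 24.6%.

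Where the largest isoform differed, the starts were apart more often than the ends. Over the 331 combinations of a member and a pair of tissues, the starts lay over 100 bases apart in 223 and the ends in 132, and both did in 103. The median distance was 5073 bases between starts and 19 bases between ends. Some combinations set the annotated transcript against an assembled isoform. Where the annotated model holds the coding length alone, such distances need not be those of transcription starts and ends. In 79 combinations neither start nor end was over 100 bases apart, and the isoforms differed in their introns. In 21 combinations, from 6 members, the isoforms shared no exonic base.

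Few members had different dominant isoforms in 2 tissues. In 5 members, different isoforms held 60% or more of the gene level in 2 tissues, which is 4.24% of the 118 members compared, where 7.52% of all genes with 2 or more isoforms did so. Only a gene with an isoform at 60% or more in both tissues can be counted. Per tissue, 11.7% (ovary) to 25.9% (fat body) of members had such an isoform, against 63.1% to 69.0% of all these genes. The percentages given here therefore do not compare how often a dominant isoform was replaced. Between fat body and ovary there were 2 such members (3.61% of all genes), between fat body and midgut 2 (3.74%), and between fat body and Malpighian tubules 1 (1.73%). Ovary and midgut had 1 (4.18%), ovary and Malpighian tubules 3 (3.23%), and midgut and Malpighian tubules 2 (1.89%). The 5 members are ASTEI05012, ASTEI08079, ASTEI05041, ASTEI03906 and ASTEI04035, and the last was named after its values were seen. Of these, ASTEI05012 and ASTEI08079 also passed with a minimum of 20 FPKM. Only the same members passed when the bounds of each main isoform had to be apart between the 2 tissues. That rule differs from the one within each tissue used above for the largest isoform. It depends also on the gene level and on the scaling between tissues. With the authors' deposited count-like values 6 members passed: ASTEI03906 no longer did, while ASTEI00038 and ASTEI02204 did, both named here after their values were seen. Coordinates are 1-based positions on the scaffolds of the deposited annotation, whose genome build is not given in the sources used here.

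ASTEI05012 (scaffold_00027:1009218-1028621, plus strand, 6 annotated exons, 8 isoforms from 5 starts) had 3 dominant isoforms, the first of ovary, the second of midgut and the last of fat body and Malpighian tubules alike. Its level was 20.7 FPKM in fat body, 43.6 in the ovary, 155 in midgut and 246 in Malpighian tubules. The isoform ANSTF.4663.3 held 72.8% in fat body, 11.4% in the ovary, 1.27% in midgut and 82.6% in Malpighian tubules. ANSTF.4663.5 held 92.8% in midgut and 4.08% in fat body, was at 0.00602% in the ovary and was listed at 0 in Malpighian tubules. ANSTF.4663.6 held 85.6% in the ovary, 0.713% in fat body and 5.70% in Malpighian tubules and was listed at 0 in midgut. Between ovary and midgut 98.4% of the gene level was carried by other isoforms. In FPKM, ANSTF.4663.5 stood at 144 in midgut with bounds of 138 and 149, and at most 2.59 by its upper bound in any other tissue.

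The 3 isoforms of ASTEI05012 differ at both ends of the gene. ANSTF.4663.3 and ANSTF.4663.5 share a start label, with starts 14 bases apart, and 6 introns. ANSTF.4663.5 removes 1 further intron of 489 bases (scaffold_00027:1028590-1029078), which lies inside the last exon of ANSTF.4663.3 and runs from before the annotated end of the gene to past it. ANSTF.4663.6 starts 17822 bases downstream of ANSTF.4663.3. Its first intron of 637 bases (1009255-1009891) ends at the acceptor that ANSTF.4663.3 joins through an intron of 16023 bases. The midgut isoform thus differs from the fat body and tubule isoform in its last exons, beside shifts of a few bases at both ends, and the ovary isoform differs at the start.

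ASTEI08079 (scaffold_00062:9768-22074, minus strand, 12 exons, 10 isoforms from 5 starts) used opposite parts of its span. Its level was 245 FPKM in fat body, 32.7 in the ovary, 126 in midgut and 63.7 in Malpighian tubules. ANSTF.7446.1, with 3 exons between 9097 and 11739, held 88.5% in fat body, 29.2% in the ovary, 0.665% in midgut and 2.68% in Malpighian tubules. ANSTF.7446.5, with 12 exons between 15201 and 23335, held 5.39% in fat body, 8.89% in the ovary, 77.9% in midgut and 76.3% in Malpighian tubules. These isoforms share no exonic base. The annotated transcript overlaps both spans and held 3.78%, 12.1%, 0.120% and 0.370%. The assembled gene holds 2 reference genes, so a fusion of neighbours and a long gene cannot be told apart here. In ovary 7 isoforms reached 1 FPKM and none held 30%.

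ASTEI05041 (scaffold_00027:1777993-1796615, minus strand, 11 exons, 10 isoforms from 4 starts) was enriched in Malpighian tubules, where its level was 167 FPKM against 10.7 in fat body, 14.1 in the ovary and 8.80 in midgut. With the deposited values ANSTF.4690.3 was nearly level, at 4.64 FPKM in fat body, 4.47 in the ovary, 5.58 in midgut and 5.46 in Malpighian tubules, and its bounds overlapped in all 4. ANSTF.4690.1 stood at 2.68, 0.494, 0.693 and 125 FPKM. The share of ANSTF.4690.3 was therefore 63.5% in midgut and 3.27% in Malpighian tubules, where ANSTF.4690.1 held 74.6%. Shares within a tissue do not depend on the scaling between tissues, but the near-level values do. TPM moves log2 levels by 1.17 in the ovary and by -0.32 in midgut, and ANSTF.4690.3 is then not level. The starts of these isoforms lie 2479 bases apart, their ends 14 bases apart, and they share 8 introns.

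ASTEI03906 (scaffold_00018:1697916-1704385, plus strand, 7 exons, 8 isoforms from 2 starts) had another main isoform in the ovary, its tissue of highest level, than in fat body and Malpighian tubules. The level was 5.25 FPKM in fat body, 37.6 in the ovary, 3.85 in midgut and 8.53 in Malpighian tubules. ANSTF.3648.6 stood at 4.29, 4.80, 2.22 and 7.05 FPKM. The annotated transcript was listed at 0 in fat body and stood at 23.5 in the ovary, 0.989 in midgut and 0.0232 in Malpighian tubules. It held 62.6% in the ovary, where ANSTF.3648.6 held 12.8%, while ANSTF.3648.6 held 81.8% in fat body and 82.7% in Malpighian tubules. ANSTF.3648.6 begins 2243 bases upstream of the annotated start and ends 3763 bases past the annotated end. The length of the annotated transcript is 2172 bases and that of ANSTF.3648.6 is 6981. They differ inside the annotated span as well. An intron that begins at 1702370 in both ends at 1702951 in ANSTF.3648.6 and at 1703104 in the annotated transcript. The annotated intron of 450 bases (1703927-1704376) lies inside an exon of ANSTF.3648.6.

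ASTEI04035 (scaffold_00019:2258911-2275992, minus strand, 11 exons, 8 isoforms from 4 starts) differed by internal exons. Its level was 16.3 FPKM in fat body, 8.0 in the ovary, 39.2 in midgut and 26.3 in Malpighian tubules. ANSTF.3773.5 held 51.2%, 13.8%, 59.7% and 67.0% in that order, and ANSTF.3773.6 held 28.0%, 62.5%, 28.1% and 19.1%. Ovary was the tissue in which ANSTF.3773.6 was the larger. The isoforms have the same start and ends 2 bases apart. Where ANSTF.3773.5 has an intron of 5701 bases (scaffold_00019:2257888-2263588), ANSTF.3773.6 has 3 introns and 2 further exons. The assembled gene holds 2 reference genes.

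**Figure D4:**
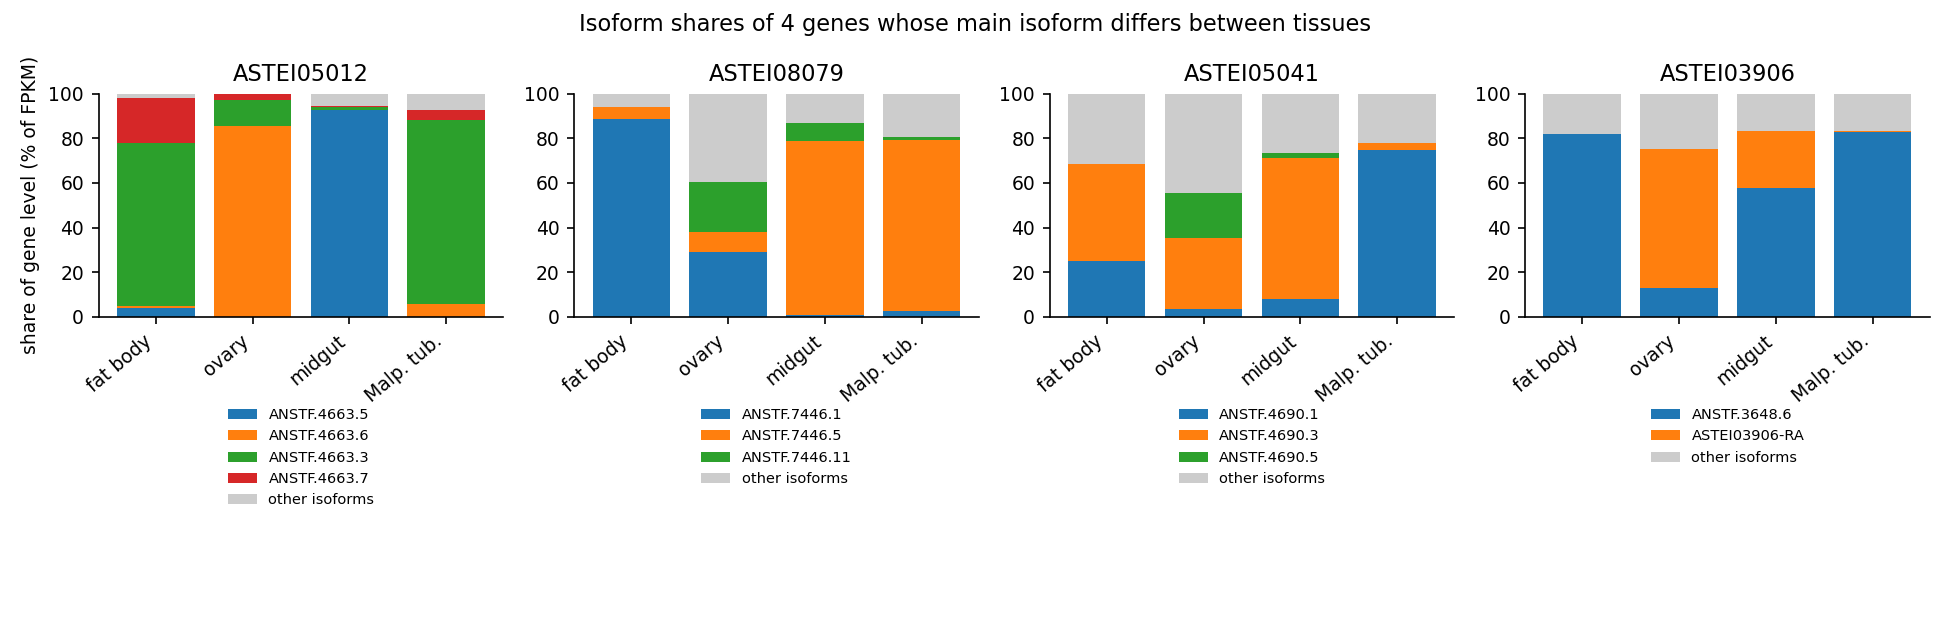
Share of the gene level (% of FPKM) held by each isoform in the 4 tissues, 1 library each, for 4 members whose main isoform differs; colours mark isoforms that hold 20% or more in any tissue and grey marks the rest. In ASTEI05012 the largest block is ANSTF.4663.3 in fat body (72.8%) and Malpighian tubules (82.6%), ANSTF.4663.6 in the ovary (85.6%) and ANSTF.4663.5 in midgut (92.8%).

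Enriched members differed in how many isoforms carried their level. In fat body the highest was ASTEI08922 (scaffold_00079:39736-51590, plus strand, 12 exons), at 880 FPKM in fat body, 38.2 in the ovary, 5.82 in midgut and 24.1 in Malpighian tubules. It had the second lowest mean entropy of the members at 5 FPKM in all tissues. ANSTF.8238.2, 5 exons between 39524 and 43322, was its largest isoform in all 4 tissues, with 80.04%, 91.8%, 54.4% and 78.5%. This isoform ends well inside the annotated span. The assembled gene holds 2 reference genes, so a fusion of neighbours and a long gene cannot be told apart here. Fat body was also highest for ASTEI07561 (scaffold_00056:28370-31893, plus strand), at 145, 6.86, 11.4 and 25.3 FPKM, and here the largest isoform differed between tissues. ANSTF.7006.6 held 46.5% in fat body and 6.34% in the ovary, and ANSTF.7006.8 held 9.78% in fat body and 86.1% in the ovary. With TPM the ratio of ASTEI07561 to the next tissue was 3.55, below the threshold of 5.

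In ovary the enriched members were ASTEI01321 (scaffold_00005:1226278-1236556, plus strand) and ASTEI02113 (scaffold_00008:923822-925761, plus strand). ASTEI01321 stood at 50.3 FPKM in fat body, 359 in the ovary, 5.04 in midgut and 24.8 in Malpighian tubules. No isoform of it dominated. The largest in the ovary was the annotated transcript with 23.4%, and the largest elsewhere was ANSTF.1250.9, with 25.6% in fat body, 28.3% in midgut and 27.8% in Malpighian tubules. ASTEI02113 stood at 16.7, 131, 4.10 and 11.9 FPKM, and its largest isoform in the ovary, ANSTF.2018.2, held 36.8%.

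In midgut ASTEI07459 (scaffold_00054:1143155-1151247, plus strand) reached 2501 FPKM, the highest level of any member, against 33.7 in fat body, 11.2 in the ovary and 227 in Malpighian tubules. ANSTF.6910.14 was its largest isoform in each tissue, with 55.8% in fat body, 39.6% in the ovary, 65.9% in midgut and 27.0% in Malpighian tubules. ASTEI08929 (scaffold_00079:197218-207065, plus strand) stood at 36.1 FPKM in fat body, 17.1 in the ovary, 264 in midgut and 49.5 in Malpighian tubules. ANSTF.8246.5 held 72.3% in midgut, where it stood at 191 FPKM, and 23.2%, 13.7% and 12.8% in fat body, ovary and Malpighian tubules. ANSTF.8246.4, with another start label, held 1.48% in midgut and 52.0% in Malpighian tubules. With TPM the ratio of ASTEI08929 to the next tissue was 2.46.

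In Malpighian tubules the second enriched member beside ASTEI05041 was ASTEI06610 (scaffold_00042:1190606-1211572, plus strand), at 63.2 FPKM in fat body, 46.8 in the ovary, 76.0 in midgut and 636 in Malpighian tubules. ANSTF.6145.8 held 64.1%, 70.4%, 29.4% and 85.0%. In midgut the largest isoform was ANSTF.6145.6 with 34.6%. The highest level in Malpighian tubules belonged to ASTEI00222 (scaffold_00001:3598467-3601165, plus strand), at 112 FPKM in fat body, 98.7 in the ovary, 695 in midgut and 1708 in Malpighian tubules. All 10 of its isoforms have the same introns within the annotated span, and the 9 assembled isoforms share 1 start label. The annotated transcript was its largest isoform in all 4 tissues, with 28.2%, 41.7%, 38.5% and 37.7%.

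The member with the most isoforms, ASTEI03335 (scaffold_00014:1231708-1244716, plus strand, 13 exons), had 37, and these differed mostly in their introns and ends. All 36 assembled isoforms share 1 start label, with starts within 55 bases. Their ends fall between 7.30 and 47.5 kb from the most upstream start, in 22 end groups, and they have 5 to 14 exons. The assembled gene holds 18 reference genes. The level was 114 FPKM in fat body, 349 in the ovary, 68.5 in midgut and 72.1 in Malpighian tubules, and the entropy was 4.48, 4.32, 4.23 and 4.45 bits, the highest of any member in each tissue. ANSTF.3107.33 held 17.1%, 20.4%, 21.7% and 13.7%, and ANSTF.3107.36 was the largest in Malpighian tubules with 17.2%. The largest distance between 2 tissues was 28.3%, so the spread over many isoforms was alike in the 4 libraries. At 1 FPKM or more in all 4 tissues were 15 of the 36.

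**Figure D5:**
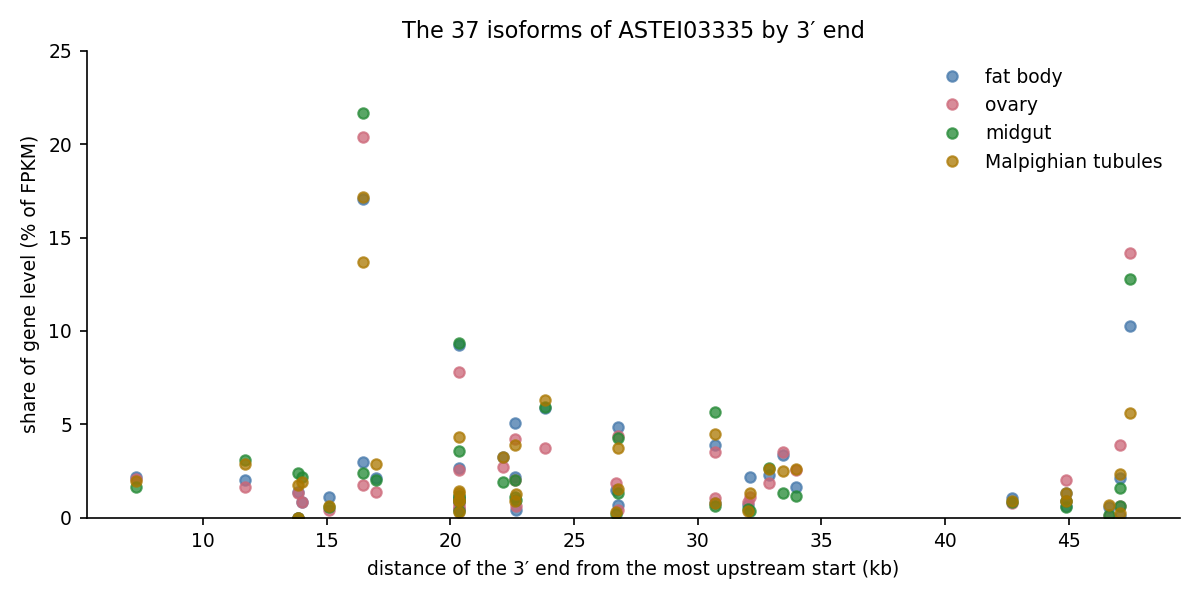
Share of the gene level (% of FPKM) of each of the 37 isoforms of ASTEI03335 against the distance of its 3′ end from the most upstream start (kb), coloured by tissue (1 library each). The ends are spread between 7.30 and 47.5 kb and no isoform exceeds 21.7%.

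ASTEI05996 (scaffold_00035:1306379-1320138, minus strand, 6 exons), with the second highest mean entropy, resembled it in having 17 isoforms with 12 end groups and 6 reference genes in the assembled gene. Its entropy was 3.19 bits in fat body, 3.39 in the ovary, 3.28 in midgut and 3.14 in Malpighian tubules. ASTEI01565 (scaffold_00005:3682022-3689487, plus strand, 8 exons), with 20 isoforms from 3 starts and 3 end groups, varied more between tissues. Its largest isoform was ANSTF.1505.5 in fat body (35.5%) and ovary (53.4%), ANSTF.1505.1 in midgut (33.0%) and ANSTF.1505.16 in Malpighian tubules (24.0%). ANSTF.1505.1 was listed at 0 in fat body and ovary. Its start is within the same start label as that of ANSTF.1505.5.

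The members with the most starts, ASTEI08524 and ASTEI08945, had 8 start labels each, and their largest isoforms differed more in their starts than in their ends. ASTEI08524 (scaffold_00070:85210-97671, minus strand, 13 exons, 12 isoforms) had a different largest isoform in each tissue, namely ANSTF.7847.11 in fat body (67.4%), ANSTF.7847.1 in the ovary (47.1%), ANSTF.7847.6 in midgut (49.8%) and ANSTF.7847.7 in Malpighian tubules (39.99%). On the minus strand these start at 108351, 132635, 108357 and 125697, and all end at 84949. The starts in fat body and midgut were 6 bases apart, and the others were distant. The ovary isoform was listed at 0 in fat body and midgut and held 0.117% in Malpighian tubules. The gene level was 6.19 FPKM in fat body, 16.9 in the ovary, 46.6 in midgut and 66.5 in Malpighian tubules.

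ASTEI08945 (scaffold_00079:596605-602604, minus strand, 7 exons, 11 isoforms) stood at 24.4 FPKM in fat body, 20.01 in the ovary, 61.0 in midgut and 31.1 in Malpighian tubules. The annotated transcript, which starts at 602604, was the largest in fat body with 42.9%. ANSTF.8263.1, from 614242, was the largest in the ovary with 25.6%. ANSTF.8263.7, from 633982, held 42.9% in midgut and 44.2% in Malpighian tubules, against 13.8% in fat body and 1.11% in the ovary. The assembled genes of ASTEI08524 and ASTEI08945 hold 2 and 3 reference genes.

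In all, 42 members lie in assembled genes that hold several reference genes and 77 in assembled genes that hold 1. Among the 77, 53 had a different largest isoform in some pair of tissues, and 3 of the 5 members with a replaced dominant isoform (ASTEI05012, ASTEI05041 and ASTEI03906) are among them. For ASTEI07790 all 8 estimates failed in Malpighian tubules. The members' fragments, estimated from the deposited count-like values, ranged from 72 to 210986 per member and tissue, with medians of 3206 in fat body, 6758 in the ovary, 3056 in midgut and 7078 in Malpighian tubules. The precision of a share within a gene also depends on how well the isoforms can be told apart, which the authors' bounds describe and the counts do not.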

How the data were processed

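RNA of 4 tissues was sequenced, 1 library each, and the submitters' processing notes name Cuffdiff, StringTie 1.2.1, HISAT2 and CASAVA 1.8. The genome build, the strand setting and the reads used for assembly are not given in the sources used here. Per the file headers, the deposited FPKM values come with bounds and a status for each estimate, and their scaling between tissues is the authors' own. The authors' deposited count-like values are a signal scaled between lanes and tissues, not raw counts: between 98.4% and 99.2% of low values lay within 0.1% of whole sums of 2 steps, so no count model was fitted. These steps gave the fragment numbers. The depth limits shares of low genes most.

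Gene levels are sums of FPKM over transcripts of class = (matching the annotated one) or j (sharing a junction), as the deposited annotation labels them. Where a gene had several annotated transcripts, the one with fewest exons was used. Isoform shares were computed at 5 FPKM or more, with a distance of 50% of the summed absolute differences. Gene bounds are sums of isoform bounds. The 9 transcripts without values were left out. The table over all genes gave the percentages set beside the members' counts; for isoforms these are genes with 2 or more isoforms, the members among them.

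Named are the members with the most isoforms, most starts, highest level per tissue, highest and lowest entropy, largest distances among those with a replaced main isoform, and the 2 highest enriched per tissue. The members and lists were chosen with earlier results of these data known. The alternatives were other thresholds, count-like values, bounds, TPM, pseudocounts and wider transcript classes. The computations, in Python 3.11.15 with pandas 2.3.3 and numpy 2.4.6, were tested on simulated data.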

Additional observations from a re-analysis of the deposited data

Results flagged for a closer look

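The levels above use transcripts that match the annotated one or share a junction with it. Other transcripts assigned to the members also carried signal, in data the comparisons above do not use. On the strand opposite to a member, 10 transcripts of 7 members reached 1 FPKM, the highest being ANSTF.8240.1 at ASTEI08922 with 99.0 FPKM in fat body (scaffold_00079:51587-58085). Whether the libraries kept strand is not given in the sources used here, so reads from overlapping genes on opposite strands cannot be told apart. Just past the end of a member 5 transcripts reached 1 FPKM, the highest being ANSTF.7846.1 at ASTEI08524 with 61.4 FPKM in midgut. Transcripts that overlap a member's exons without a shared junction numbered 4, the highest being ANSTF.7006.1 at ASTEI07561 with 29.0 FPKM in fat body. Inside introns there were 3, the highest being ANSTF.5693.1 at ASTEI06104 with 28.4 FPKM in midgut.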

How the results depend on the processing

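No paired analysis was possible because each tissue had 1 library. Under the first set of other settings 82 values stayed near the reported ones, meaning a count within 1.5 times or a median within its 95% order-statistic interval, and 35 moved. Under those chosen after seeing the data 42 stayed and 9 moved. A count can stay near while its direction turns: with TPM 47 members differed between ovary and midgut, 37 higher in the ovary and 10 in midgut, against 16 and 23 as reported. Those that moved follow, and the cause was not tested. The members numbered 60 at 10 or more isoforms and 77 where the assembled gene holds 1 reference gene. With transcripts at 1 FPKM or more, the median entropy was 1.77 bits in fat body, 1.97 in the ovary, 1.802 in midgut and 1.99 in Malpighian tubules. With class j only (chosen after seeing the data) it was 1.87 in midgut, and the distance between ovary and midgut was 51.6%. The main isoform differed in 15 members at a 50% share, 1 at 80%, 2 at 20 FPKM, 2 with bounds apart between the tissues and 3 with 1 reference gene. The largest isoform differed in 53 of the 77 members with 1 reference gene (chosen after seeing the data), against 84 of 118 as reported. The settings of 20 FPKM and of 1 reference gene leave fewer members to compare, so a lower count need not be a lower share. The pairs follow in the order fat body with ovary, midgut and Malpighian tubules, then ovary with midgut and Malpighian tubules. In these pairs the largest isoform differed in 26, 30, 31, 37 and 41 members at 20 FPKM. In the same order, with midgut and Malpighian tubules last, it differed in 34, 19, 18, 35, 42 and 17 with bounds apart within each tissue, and in 35, 27, 31, 39, 41 and 29 with 1 reference gene. With TPM, 4-fold differences numbered 40 between fat body and ovary, 40 between fat body and Malpighian tubules and 37 between midgut and Malpighian tubules. Enriched members with TPM numbered 1 in fat body, 9 in the ovary and 4 in Malpighian tubules. At a ratio of 2 they numbered 8 in fat body, 16 in the ovary, 10 in midgut and 12 in Malpighian tubules, and at a ratio of 10 they numbered 1 in fat body, 0 in the ovary and 1 in Malpighian tubules.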
